A study of Homo sapiens with 6 samples.

Results

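The genes described here are 43 genes of the transforming growth factor beta (TGF-beta), activin and bone morphogenetic protein (BMP) pathways, out of 63140 genes listed for each culture. They were chosen by symbol as ligands, receptors, SMAD proteins, inhibitors and ID target genes of these pathways, and all 43 symbols were found. Of the 43, 42 had enough counts to be tested among 14451 genes in all. BMP6, with between 0.175 and 0.789 CPM in the 6 libraries, was the member left out of the test. CPM are counts scaled to the library total as adjusted by edgeR's TMM factor.

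The study asked how increased fat synthesis, induced in breast cancer cells by medium from fat cells, affects gene regulation and transgene expression. BT-549 is an established human line of triple negative breast cancer, and the cells sequenced here were wild type, with no transgene. For 24 h, 3 cultures were kept in adipocyte conditioned medium (ACM) and 3 in unconditioned medium (UCM). ACM is a medium with insulin, oleate and albumin taken from mouse OP9 cells that were becoming adipocytes. The sample labels give 50% ACM, whereas the methods describe undiluted ACM for sequencing, and the difference cannot be settled from the files. The formula of UCM is not stated, so an effect of adipocyte secretions cannot be told apart from one of base medium, serum, insulin or oleate. The cultures were grown in a 6-well plate and are not described as separate experiments, so a p-value here measures a spread that may be technical.

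Ligands of the TGF-beta family bind pairs of type I and type II receptor kinases on the cell surface. TGF-beta and activin receptors phosphorylate SMAD2 and SMAD3, BMP receptors phosphorylate SMAD1 and SMAD5, and both kinds of SMAD enter the nucleus together with SMAD4. The pathway is held in check by secreted antagonists, by the latent complex in which TGF-beta is stored in the matrix, by the inhibitory SMAD6 and SMAD7, and by nuclear corepressors. In breast cancer cells TGF-beta is known for driving a mesenchymal state, while ID genes are classical targets of BMP signaling.

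Total expected counts were between 18011670 and 21053257 in ACM and between 17135288 and 20975782 in UCM. Values below are CPM in replicates 1, 2 and 3 in that order, and a log2 fold change (log2 FC) is that of ACM over UCM, with its standard error (SE). A gene is said to have risen or fallen where edgeR's quasi-likelihood test gave an adjusted p at or below 0.05 over all genes tested. An adjusted p after the word alternatives is the range of this value under 14 other processings, DESeq2 and limma among them. edgeR's common biological coefficient of variation came to 0.115. Levels of different genes are compared only as TPM, transcript amounts scaled for both length and depth.

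The cells were checked against marker genes. Mesenchymal VIM stood between 2736 and 3554 CPM, and CDH2, SPARC and ZEB1 were also expressed. EPCAM had a count in ACM replicate 1 alone, CDH1 stayed at or below 1.83 CPM, and KRT8, KRT18 and KRT19 averaged under 1 CPM in both groups, so the markers go against an epithelial description of these cells. ESR1 and PGR had no count in any library. ERBB2 lay between 61.6 and 75.0 CPM. The 6 adipocyte markers summed to at most 0.143 CPM in any library, with ADIPOQ, LEP and CIDEC at 0. Of immune cell genes, PTPRC had between 0.142 and 0.323 CPM, and CD3E and LYZ had no count in any library. Carry-over of mouse OP9 cells cannot be seen in reads aligned to the human genome and was not tested.

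Libraries within a group were not alike. UCM replicate 1 differed from UCM replicates 2 and 3 with a chi-square per degree of freedom of 21.5 and 19.9, against 2.33 between replicates 2 and 3. Among the ACM libraries this value lay between 13.1 and 18.8. On the first principal component of log2 CPM, which held 39.8% of the variance, ACM replicate 2 lay at -36.4 and the other ACM libraries at -16.5 and -14.7. The UCM libraries lay at 12.97, 26.3 and 28.3, with replicate 1 closest to ACM. Replicate 1 also had the largest total count of its group in both ACM and UCM. The part that depth or library preparation has in this was not tested, and members whose call turns on 1 library are given with and without it.

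In ACM, 5 of the 42 tested members rose and 2 fell. Those that rose were LTBP2, FST, TGIF1, TGFBR1 and TGFB1, and those that fell were the pseudoreceptor gene BAMBI and ID2. Of all genes tested, 3.35% were called higher and 2.21% lower at this threshold, 5.56% in either direction. The members were chosen with earlier results of these data known, which limits this and the following comparisons with all genes. At an unadjusted p at or below 0.05 and an absolute log2 FC of 0.58 or more, 7 members were higher and 3 lower, where 4.12% and 1.71% of all genes were (5.83% in either direction). The 3 ACM values lay wholly above the 3 UCM values for 13 members and wholly below for 11, against 13.9% and 15.0% of all genes, or 28.9% together. With an unadjusted p at or below 0.05 as well, these were 11 and 8 members, against 10.4% and 10.3% of all genes, or 20.7% together. Log2 FC values of members went both ways, with 24 above 0, 18 below 0 and a median of 0.06, beside a median of -0.01 over all genes. Since members include inhibitors as well as ligands and receptors, these signs do not give a direction of pathway activity.

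Single libraries moved these counts, over all genes as well as among members. Of all genes edgeR called 484 higher and 320 lower with every library in, 125 and 70 without UCM replicate 2, and 156 and 62 without UCM replicate 3. In both of these fits 0 members were called higher and 1 lower, with 5 higher and 2 lower under the unadjusted rule with the fold threshold. Of all genes, that rule gave 515 higher and 206 lower without UCM replicate 2, and 554 and 189 without UCM replicate 3. Without UCM replicate 1, 8 members were called higher and 5 lower, beside 738 and 572 of all genes, and without ACM replicate 2, 2 and 1 members, beside 197 and 87 of all genes. With all libraries, DESeq2 called 10 higher and 6 lower, where it called 764 and 447 of all genes, or 5.29% and 3.09%. Among the 24 members whose groups did not overlap, UCM replicate 1 was the UCM library nearest to ACM for 17, or 70.8%, against 47.5% of all such genes. ACM replicate 2 was the library farthest from UCM for 16 of the 24, or 66.7%, against 53.9% of all such genes.

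**Figure D1:**
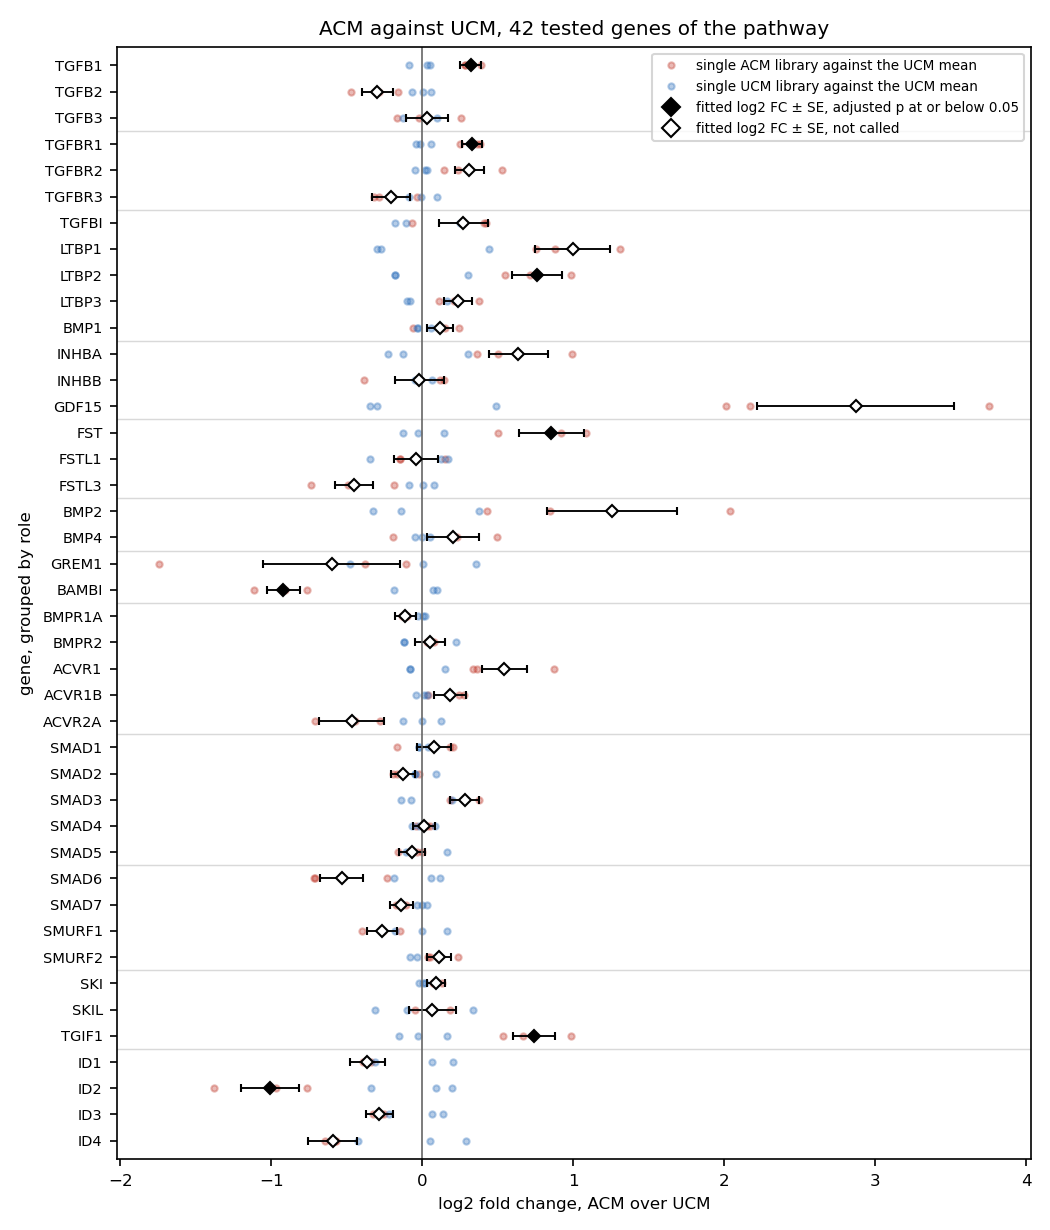
Log2 fold change of ACM over UCM for the 42 tested genes, grouped by role, with diamonds for the fitted value and its standard error, filled where the adjusted p is at or below 0.05. Faint points are single ACM (red) and UCM (blue) libraries against the UCM mean, and show BAMBI at -0.92 with tight groups and GDF15 at 2.87 with scattered ACM libraries.

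TGF-beta ligands did not move together. TGFB1, the main TGF-beta isoform of these cells at a mean of 63.1 TPM, had 116, 125 and 116 CPM in ACM and 90.1, 97.5 and 99.1 CPM in UCM. All 3 ACM cultures stood above all 3 UCM cultures, by more than the spread within either group (119 ± 5.07 against 95.6 ± 4.83 CPM, mean ± SD, n = 3). The rise was small, at 1.25-fold (log2 FC = 0.32 ± 0.07 SE, edgeR adjusted p = 0.0288). It no longer passed without ACM replicate 2 (edgeR adjusted p = 0.110), ACM replicate 3 (0.0566), UCM replicate 2 (0.113) or UCM replicate 3 (0.0788), with alternatives from 0.00294 to 0.113. The call of TGFB1 was also lost in limma on log2 TPM with 1 or 0.1 added (adjusted p = 0.0689 and 0.0707) and with effective lengths as edgeR offsets (0.0560). TGFB2, an isoform with a mean of 8.72 TPM, had 23.7, 19.1 and 21.7 CPM in ACM and 26.5, 25.3 and 27.6 CPM in UCM. Every ACM value of TGFB2 was below every UCM value, yet the difference did not pass (log2 FC = -0.30 ± 0.10 SE, edgeR adjusted p = 0.121). TGFB3 was at 7.02 TPM, its groups overlapped, and its log2 FC was 0.03, a value whose sign changed when single libraries were left out. In bulk RNA, a smaller share of cells expressing a gene and less RNA per cell cannot be told apart, here or for any gene below.

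Both signaling receptors of TGF-beta were higher in ACM, 1 of them past the threshold. TGFBR1, the type I receptor kinase, had 177, 164 and 179 CPM in ACM and 143, 134 and 136 CPM in UCM. The groups did not overlap, with 173 ± 8.36 against 138 ± 4.82 CPM, mean ± SD, n = 3, and the gene rose 1.26-fold (log2 FC = 0.33 ± 0.07 SE, edgeR adjusted p = 0.0210). Leaving out ACM replicate 1, ACM replicate 3, UCM replicate 2 or UCM replicate 3 took its edgeR adjusted p to 0.0515, 0.0680, 0.122 and 0.102, and over all alternatives it ranged from 0.00106 to 0.137. The call of TGFBR1 was also lost in limma on log2 TPM with 1 or 0.1 added (adjusted p = 0.135 and 0.137) and with effective lengths as edgeR offsets (0.0692). TGFBR2, the type II receptor that binds ligand first, had 72.4, 94.8 and 77.5 CPM in ACM and 67.0, 66.4 and 63.4 CPM in UCM. Its 3 UCM values were close together and all lay below the ACM values, of which replicate 2 was the highest (log2 FC = 0.31 ± 0.10 SE, edgeR adjusted p = 0.0923). Without ACM replicate 2 the log2 FC of TGFBR2 was 0.19. With the filter of 1 count in total it passed (edgeR adjusted p = 0.00670, alternatives 0.00670 to 0.284), as it did with a replicate block (0.0358). The filter of 1 count in total called 1045 of all genes higher and 679 lower, against 484 and 320 in the main fit. TGFBR3, or betaglycan, a coreceptor that presents ligand, was lowest of the 3 at 3.90 TPM, against 46.4 TPM for TGFBR1 and 24.8 TPM for TGFBR2. Its groups overlapped, with a log2 FC of -0.21. In TPM they were apart, at 3.29 to 3.8 in ACM and 4.0 to 4.35 in UCM.

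All 5 genes of latent TGF-beta storage and matrix had a log2 FC above 0, and 1 of them passed the test. LTBP2, a matrix protein related to the latent TGF-beta binding proteins that does not itself hold the latent complex, had 319, 235 and 265 CPM in ACM and 199, 142 and 142 CPM in UCM. ACM replicate 1 was the highest and UCM replicate 1 the highest of its group, and all ACM values lay above all UCM values (273 ± 42.2 against 161 ± 32.6 CPM, mean ± SD, n = 3). LTBP2 rose 1.69-fold (log2 FC = 0.76 ± 0.16 SE, edgeR adjusted p = 0.0450). It passed in 8 of 14 alternatives, and the only library whose removal kept the call was UCM replicate 1, after which the log2 FC was 0.95 (edgeR adjusted p = 0.00304). With each other library left out it lay between 0.0640 and 0.153, it was 0.0519 in limma on log2 TPM with 1 added, and over all alternatives it ranged from 8.05e-12 to 0.153.

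LTBP1, which ties latent TGF-beta to the matrix, had 86.9, 117 and 79.5 CPM in ACM and 64.2, 38.3 and 39.1 CPM in UCM. The UCM libraries split, with replicate 1 well above the other UCM libraries, and no ACM value was as low as any of them. The difference did not pass (log2 FC = 1.00 ± 0.25 SE, edgeR adjusted p = 0.0783). Without UCM replicate 1 the log2 FC of LTBP1 was 1.29 and passed (edgeR adjusted p = 0.00923, alternatives 0.00923 to 0.243). DESeq2 called LTBP1 with all libraries in (adjusted p = 0.0196). LTBP3, another carrier of latent TGF-beta, was at 238 TPM, above LTBP1 at 21.3 TPM and LTBP2 at 43.4 TPM, and its groups overlapped with a log2 FC of 0.24. Without UCM replicate 1 LTBP3 passed as well, at 0.34 (edgeR adjusted p = 0.0294, alternatives 0.0230 to 0.451). With all libraries in, LTBP3 passed with the filter of 1 count in total (edgeR adjusted p = 0.0403) and with a replicate block (0.0230). TGFBI, a matrix protein first found as a gene induced by TGF-beta, had 1697, 1677 and 1205 CPM in ACM and 1506, 1174 and 1115 CPM in UCM. ACM replicate 3 lay among the UCM values, so the groups overlapped (log2 FC = 0.27 ± 0.16 SE, edgeR adjusted p = 0.368, alternatives 0.0485 to 0.666). BMP1, a protease that matures procollagen and cleaves LTBP1, had a log2 FC of 0.12 with overlapping groups.

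**Figure D2:**
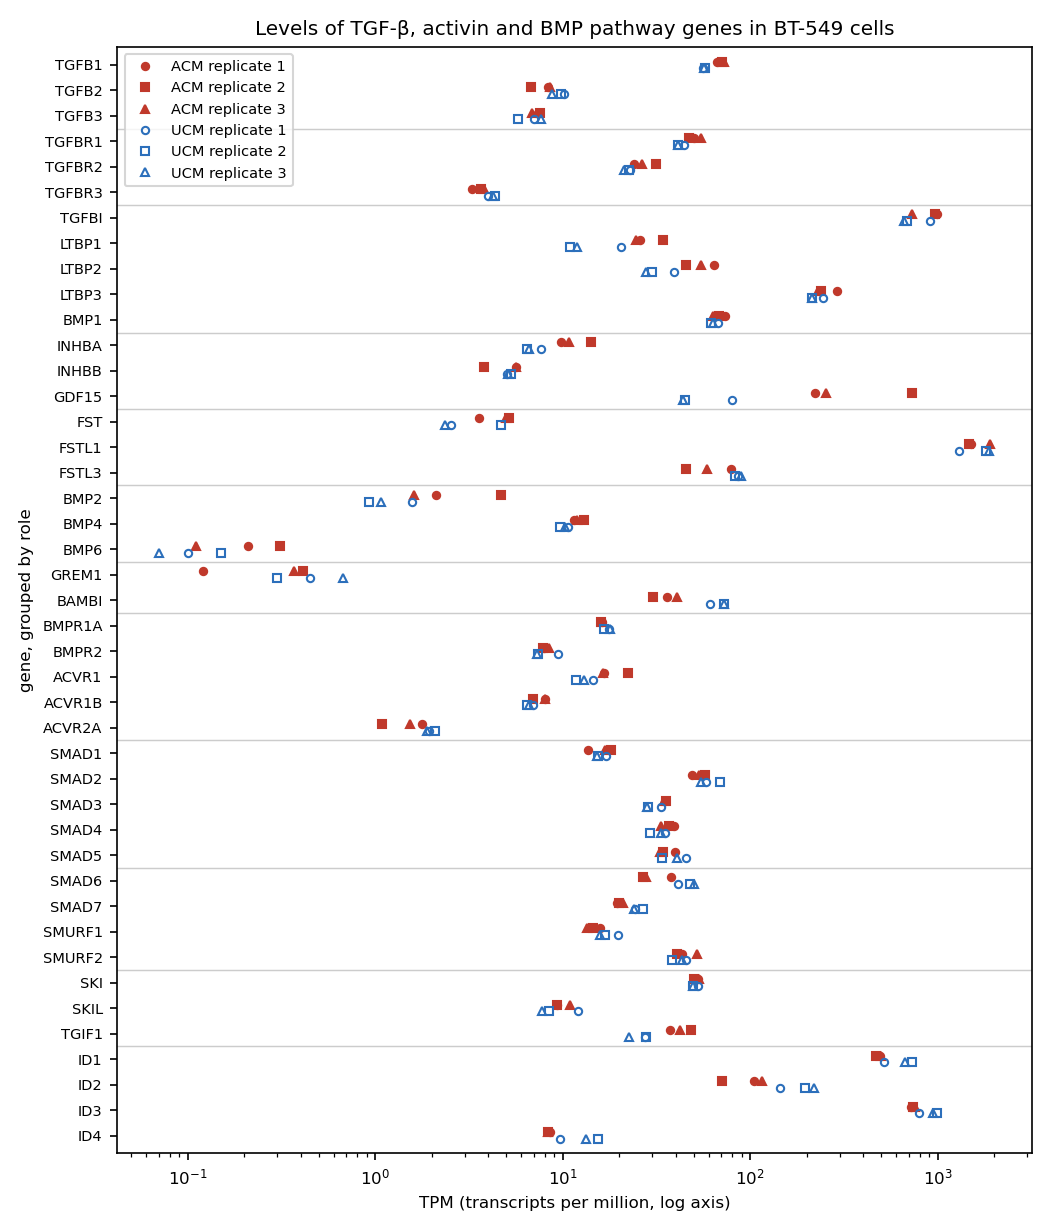
Level of each of the 43 genes in each of the 6 libraries, in TPM on a log axis, with filled red symbols for ACM, open blue symbols for UCM and a shape for each replicate. The genes span from BMP6 at a mean of 0.158 TPM to FSTL1 at 1646 TPM, and the 4 ID genes at the bottom have every ACM symbol to the left of every UCM symbol.

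Among the activin chains and the distant ligand GDF15, no member passed the adjusted threshold, although 2 of 3 passed the unadjusted one with the fold threshold and were called by DESeq2. GDF15, a stress-induced cytokine that acts through a receptor outside the SMAD pathway in the brainstem, had 145, 485 and 161 CPM in ACM and 50.3, 29.2 and 28.2 CPM in UCM. All ACM values were far above all UCM values, and replicate 2 stood far above the other ACM cultures (264 ± 192 against 35.9 ± 12.5 CPM, mean ± SD, n = 3). Its log2 FC was the largest of all members and had the largest SE (log2 FC = 2.87 ± 0.65 SE, edgeR adjusted p = 0.0899). Without ACM replicate 2 the log2 FC was 2.09 and passed (edgeR adjusted p = 0.0238), and over all alternatives the adjusted p ranged from 1.56e-04 to 0.303.

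INHBA, which encodes the chain of activin A, had 21.7, 33.6 and 23.9 CPM in ACM and 20.8, 15.4 and 14.4 CPM in UCM. In CPM, ACM replicate 1 and UCM replicate 1 were close together, and ACM replicate 2 was the highest (log2 FC = 0.64 ± 0.20 SE, edgeR adjusted p = 0.1002). The effective length of INHBA was 3141 bases in ACM replicate 1 and 3933 in UCM replicate 1. In TPM these libraries stood at 9.76 and 7.69, with 9.76 to 14.2 over ACM and 6.43 to 7.69 over UCM. Without UCM replicate 1 INHBA passed, with a log2 FC of 0.83 (edgeR adjusted p = 0.0322, alternatives 1.24e-05 to 0.298). INHBB, the chain of activin B, was at 5.08 TPM against 9.26 TPM for INHBA. Its groups overlapped, and its log2 FC of -0.02 changed sign when ACM replicate 2 or UCM replicate 2 was left out.

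Follistatins bind activin outside the cell. FST, encoding follistatin, had 4.47, 6.70 and 5.98 CPM in ACM and 2.89, 3.49 and 3.09 CPM in UCM, from counts of 94, 119 and 110 in ACM and 61, 65 and 53 in UCM. Each ACM value was above each UCM value, with replicate 1 the lowest of the ACM cultures (5.72 ± 1.14 against 3.16 ± 0.308 CPM, mean ± SD, n = 3). FST rose 1.81-fold (log2 FC = 0.85 ± 0.22 SE, edgeR adjusted p = 0.0471). It passed in 6 of 14 alternatives, and of the libraries only ACM replicate 1 could be left out without losing the call (edgeR adjusted p = 0.0317, and 0.0643 to 0.181 without any 1 of the others). FST was also the 1 member whose effective length differed by over 1.5 times between libraries, with 1054 bases in UCM replicate 2 and between 1654 and 1893 in the others. In TPM, which divides by that length, UCM replicate 2 stood at 4.68 within the ACM range of 3.57 to 5.15, so the groups overlapped on that scale. With effective lengths as offsets the log2 FC of FST was 0.57 (edgeR adjusted p = 0.371, alternatives 0.00784 to 0.371), and limma on log2 TPM with 1 or 0.1 added gave an adjusted p of 0.341 and 0.343.

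FSTL3, which encodes another activin-binding follistatin, had 97.3, 66.2 and 78.5 CPM in ACM and 104, 111 and 117 CPM in UCM. All ACM values lay below all UCM values, with ACM replicate 1 nearest to UCM (log2 FC = -0.45 ± 0.13 SE, edgeR adjusted p = 0.0772). Without ACM replicate 1 its log2 FC was -0.60 and passed (edgeR adjusted p = 0.0130, alternatives 6.03e-06 to 0.255). With all libraries in, FSTL3 passed in DESeq2 (adjusted p = 0.01075) and with the filter of 1 count in total (edgeR adjusted p = 6.03e-06). FSTL1, a secreted glycoprotein with a follistatin-like domain, was the most abundant member at 1646 TPM. It had 2214, 2220.3 and 2730.3 CPM in ACM and 1929.8, 2680.2 and 2758 CPM in UCM. UCM replicate 1 was the lowest and UCM replicate 3 the highest of all 6, so the groups overlapped, and the log2 FC of -0.04 changed sign with single libraries left out.

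BMP ligands were expressed at low levels, and of 2 tested edgeR called 0, while BMP2 had an unadjusted p at or below 0.05 and was called by DESeq2. BMP2 had 4.85, 11.1 and 3.64 CPM in ACM and 3.51, 2.15 and 2.45 CPM in UCM, from counts of 102, 197 and 67 in ACM and 74, 40 and 42 in UCM. ACM replicate 2 was more than double the other ACM cultures, and ACM replicate 3 was just above UCM replicate 1 (log2 FC = 1.26 ± 0.43 SE, edgeR adjusted p = 0.134). Without ACM replicate 2 its log2 FC was 0.65 (edgeR adjusted p = 0.314, alternatives 1.30e-05 to 0.368). BMP4, the BMP ligand of highest level at 11.2 TPM, had 8.92, 14.4 and 12.0 CPM in ACM and 10.2, 10.6 and 9.85 CPM in UCM. In CPM, ACM replicate 1 was the lowest of all 6 libraries, so the groups overlapped (log2 FC = 0.20 ± 0.17 SE, edgeR adjusted p = 0.533). This library also had the shortest effective length of BMP4, 1098 bases, the next shortest being 1374 in UCM replicate 3. On the TPM scale BMP4 showed no overlap, with 11.49 to 13.03 in ACM and 9.62 to 10.66 in UCM. With effective lengths as offsets its log2 FC was 0.28, which did not pass either (edgeR adjusted p = 0.348). The log2 FC of BMP4 was 0.38 without ACM replicate 1 and 0.03 without ACM replicate 2. BMP6 had counts of 11, 14 and 5 in ACM and 5, 7 and 3 in UCM.

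BAMBI had the smallest adjusted p of all members. It encodes a transmembrane pseudoreceptor, which resembles a type I receptor but has no kinase and dampens TGF-beta and BMP signals. BAMBI had 36.3, 31.4 and 40.1 CPM in ACM and 59.8, 72.8 and 71.7 CPM in UCM. The highest ACM value, in replicate 3, was well below the lowest UCM value, in replicate 1 (35.9 ± 4.35 against 68.1 ± 7.18 CPM, mean ± SD, n = 3). BAMBI fell to 0.53 of its UCM level (log2 FC = -0.92 ± 0.11 SE, edgeR adjusted p = 0.00232). It passed under each of the 14 alternatives, with an adjusted p from edgeR, DESeq2 or limma of 6.51e-20 to 0.0136, and the log2 FC lay in a range of -1.01 to -0.83 with single libraries left out. GREM1, encoding the secreted BMP antagonist gremlin, was at 0.387 TPM and between 0.380 and 1.63 CPM with overlapping groups.

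Of 5 activin and BMP receptor genes edgeR called 0, with 1 at an unadjusted p at or below 0.05 and 1 by DESeq2, which was ACVR1 in both. ACVR1, a type I receptor for BMPs also known as ALK2, had 32.9, 47.7 and 33.5 CPM in ACM and 28.9, 24.6 and 24.7 CPM in UCM. ACM replicate 2 stood above the other ACM cultures, and all ACM values were above UCM (log2 FC = 0.54 ± 0.15 SE, edgeR adjusted p = 0.0704). Without ACM replicate 2 the log2 FC of ACVR1 was 0.35 (edgeR adjusted p = 0.161, alternatives 1.61e-05 to 0.231). BMPR1A, a type I BMP receptor, had 46.9, 48.0 and 47.7 CPM in ACM and 51.6, 50.5 and 52.0 CPM in UCM. The 3 ACM values all lay just below the UCM values, a small difference that did not pass (log2 FC = -0.11 ± 0.07 SE, edgeR adjusted p = 0.375). The groups of ACVR1B, the type I activin receptor, and of ACVR2A, a type II receptor, did not overlap either, with a log2 FC of 0.18 and -0.47, and neither passed. For ACVR1B this rests on the scaling, since ACM replicate 1 (18.15 CPM) and UCM replicate 1 (18.10 CPM) both had 382 counts. BMPR2, the type II BMP receptor, had 0.05 with overlapping groups, and the sign of this value changed without UCM replicate 2.

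Of SMAD1, SMAD2, SMAD3, SMAD4 and SMAD5, edgeR called 0, DESeq2 called 0, and 1, SMAD3, had an unadjusted p at or below 0.05. SMAD2, the most abundant of the 5 at 56.9 TPM, had 56.8, 64.0 and 58.0 CPM in ACM and 63.1, 69.4 and 62.8 CPM in UCM. ACM replicate 2 lay above UCM replicates 1 and 3, so the groups overlapped (log2 FC = -0.13 ± 0.08 SE, edgeR adjusted p = 0.374). SMAD3, the other SMAD of the TGF-beta arm, had 101, 108 and 94.3 CPM in ACM and 95.0, 78.8 and 75.5 CPM in UCM. UCM replicate 1 lay above ACM replicate 3, and the other UCM libraries lay below all ACM values (log2 FC = 0.28 ± 0.10 SE, edgeR adjusted p = 0.111). In TPM the groups of SMAD3 were apart, at 34.68 to 35.69 in ACM and 28.1 to 33.33 in UCM. Without UCM replicate 1 the log2 FC of SMAD3 was 0.40 and passed (edgeR adjusted p = 0.0104, alternatives 0.0104 to 0.332). With all libraries in, SMAD3 passed with the filter of 1 count in total (edgeR adjusted p = 0.0157) and with a replicate block (0.0355). The values for SMAD1 and SMAD5 of the BMP arm were 0.08 and -0.07, that for the common SMAD4 was 0.01, and the groups of all 3 genes overlapped. The signs of SMAD4 and SMAD5 changed when single libraries were left out, and with effective lengths as offsets SMAD4 was 0.20 and SMAD5 -0.14.

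Among inhibitors inside the cell, SMAD6 had the lowest log2 FC, and none of 4 was called by edgeR, while 2 had an unadjusted p at or below 0.05 and 1 was called by DESeq2. SMAD6, which blocks BMP receptors and is itself a BMP target, had 109.6, 78.8 and 78.2 CPM in ACM and 113, 134 and 139.8 CPM in UCM. ACM replicate 1 came close to UCM replicate 1, the other ACM values were far lower, and no value overlapped (log2 FC = -0.53 ± 0.14 SE, edgeR adjusted p = 0.0740). Without ACM replicate 1 its log2 FC was -0.71 and passed (edgeR adjusted p = 0.00888, alternatives 2.68e-08 to 0.240). With all libraries in, SMAD6 passed in DESeq2 (adjusted p = 0.00294) and with the filter of 1 count in total (edgeR adjusted p = 2.68e-08). SMAD7, the inhibitory SMAD induced by TGF-beta, lay between 36.9 and 38.5 CPM in ACM and between 40.6 and 42.5 in UCM, with no overlap (log2 FC = -0.14 ± 0.08 SE, edgeR adjusted p = 0.308). With effective lengths as offsets its log2 FC was -0.29, which did not pass either (edgeR adjusted p = 0.147, alternatives 0.127 to 0.593). SMURF2, a ubiquitin ligase that marks receptors and SMADs for degradation, had 103, 104 and 118 CPM in ACM and 108, 94.8 and 97.9 CPM in UCM. Its groups overlapped (log2 FC = 0.11 ± 0.08 SE, edgeR adjusted p = 0.459). SMURF1, a ligase of the same kind, had a log2 FC of -0.27 with overlapping groups (edgeR adjusted p = 0.146, alternatives 0.0358 to 0.333). It passed with a replicate block (edgeR adjusted p = 0.0358) and with the filter of 1 count in total (0.0496).

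TGIF1 stood out among the corepressors. This homeodomain protein recruits histone deacetylases to SMAD2 and SMAD3 and lowers their output. TGIF1 had 24.3, 30.3 and 22.2 CPM in ACM and 17.1, 15.0 and 13.8 CPM in UCM. Its ACM values were all above UCM, with replicate 2 the highest (25.6 ± 4.22 against 15.3 ± 1.69 CPM, mean ± SD, n = 3). TGIF1 rose 1.67-fold (log2 FC = 0.74 ± 0.14 SE, edgeR adjusted p = 0.0147). The call held in 11 of 14 alternatives, and was lost without ACM replicate 2, UCM replicate 2 or UCM replicate 3 (edgeR adjusted p = 0.0555, 0.0694 and 0.0605), in a range of 3.20e-07 to 0.0694 over all 14. SKI, the corepressor of highest level at 51.3 TPM, had 209, 201 and 202 CPM in ACM and 189, 194 and 193 CPM in UCM. Every ACM value was slightly above every UCM value, and the difference did not pass (log2 FC = 0.09 ± 0.06 SE, edgeR adjusted p = 0.403). In TPM the groups of SKI overlapped, at 50.35 to 53.31 in ACM and 49.23 to 52.51 in UCM. SKIL, a related corepressor that TGF-beta induces, was at 9.61 TPM with a log2 FC of 0.06, overlapping groups, and a sign that changed without UCM replicate 3.

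All 4 ID genes were lower in ACM with no overlap between groups, as were 15.0% of all genes tested. Of the 4, 1 passed the adjusted threshold, where 2.21% of all genes were called lower. DESeq2 called 3 of the 4, all but ID3, and 3.09% of all genes lower. ID proteins bind bHLH transcription factors and, having no DNA-binding region, keep them off DNA. ID2 had 59.3, 44.6 and 68.3 CPM in ACM and 91.6, 123 and 132 CPM in UCM. ACM replicate 2 was the lowest and UCM replicate 1 the nearest UCM library to ACM (57.4 ± 12.0 against 116 ± 21.5 CPM, mean ± SD, n = 3). ID2 fell to 0.50 of its UCM level (log2 FC = -1.01 ± 0.19 SE, edgeR adjusted p = 0.0335). It passed in 7 of 14 alternatives, and was lost without ACM replicate 1 (edgeR adjusted p = 0.0715), ACM replicate 2 (0.0558), UCM replicate 2 (0.142) or UCM replicate 3 (0.119). Over the alternatives its adjusted p ranged from 7.02e-08 to 0.142, and it was 0.0787 without both libraries numbered 1. The call of ID2 was also lost in limma on log2 TPM with 1 or 0.1 added (adjusted p = 0.0532 and 0.0516) and with effective lengths as edgeR offsets (0.0570).

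ID1, the best known BMP target, had 253, 244 and 248 CPM in ACM and 257, 367 and 335 CPM in UCM. The ACM values were nearly equal, and UCM replicate 1 was just above them, far from the other UCM libraries (log2 FC = -0.36 ± 0.12 SE, edgeR adjusted p = 0.107). ID3, the ID gene of highest level at 826 TPM, had 335, 351 and 346 CPM in ACM and 359, 461 and 437 CPM in UCM. Here too UCM replicate 1 was close to ACM and the other UCM libraries were higher (log2 FC = -0.28 ± 0.09 SE, edgeR adjusted p = 0.0950). ID4, at 10.6 TPM the lowest of the 4, had 21.6, 21.7 and 20.7 CPM in ACM and 24.0, 39.4 and 33.4 CPM in UCM. Its ACM values were tight, and UCM replicate 1 again lay between them and the rest of UCM (log2 FC = -0.59 ± 0.16 SE, edgeR adjusted p = 0.0690). Without UCM replicate 1, ID1 had a log2 FC of -0.49, ID3 of -0.38 and ID4 of -0.76. All 3 then passed, with edgeR adjusted p-values of 0.00213, 0.00750 and 0.00164. They also passed with all libraries in and the filter of 1 count in total (edgeR adjusted p = 2.79e-04, 0.00986 and 1.04e-05). That filter called 1045 of all genes higher and 679 lower, against 484 and 320 in the main fit. With a replicate block ID3 and ID4 passed (edgeR adjusted p = 0.0225 and 0.0263). Over the alternatives the adjusted p ranged from 2.79e-04 to 0.308 for ID1, 0.00750 to 0.341 for ID3 and 1.04e-05 to 0.206 for ID4. On the TPM scale ID3 ranked below FSTL1 alone, and ID1 below FSTL1, ID3 and TGFBI.

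**Figure D3:**
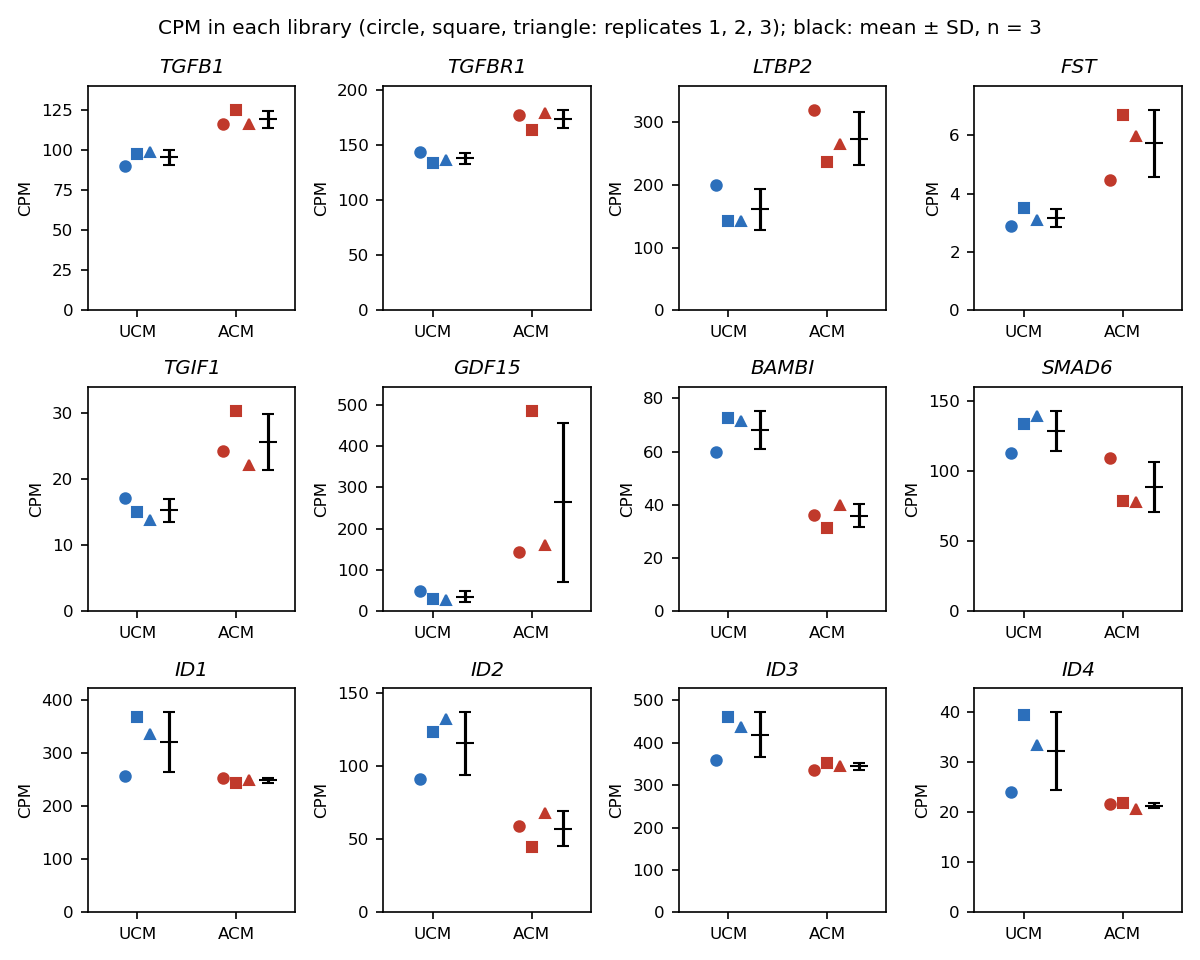
CPM of 12 of the genes in each library, with symbols for replicates 1, 2 and 3, blue for UCM and red for ACM, and black bars for the mean ± SD of 3. In the bottom row UCM replicate 1 (circle) is the UCM library nearest to ACM for all 4 ID genes, and in the GDF15 panel ACM replicate 2 (square) stands at 485 CPM above the rest.

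Promoter windows were read because SMADs act on their target genes through DNA, and ID2, SMAD6 and BAMBI are known targets. The RefSeq table for GRCh38.p14 held windows for 40 members, 75 windows in all, each from 250 bases before to 50 bases after a transcript start, and none for BMP1, BMP2 or SKI. Letters that SMAD proteins are known to bind were searched on both strands, namely GGCGCC, the palindrome GTCTAGAC, and CAGACA, which on the other strand reads TGTCTG. Both GGCGCC and GTCTAGAC read alike on the 2 strands, while CAGACA and GTCTAGAC each hold AGAC. The motif GGCGCC was in 20 windows of 18 members, where 19.2% of all 35116 windows held it, and CAGACA in 17 windows of 12 members, where 16.9% did. GTCTAGAC was in 1 window, that of SMAD6, and in 0.202% of all windows. The windows of 4 genes, picked after the values were seen, are shown 5′ to 3′ on the strand of the gene, with capitals on any match. That of ID2 (plus strand, chr2:8681806-8682105, inside the annotated gene from 8678845 to 8684461) has none of the 3 motifs. That of BAMBI (plus strand, chr10:28677271-28677570, at the start of a gene from 28677510 to 28682932) has GGCGCC 3 times. That of LTBP2 (minus strand, chr14:74612188-74612487, at the start of a gene from 74498183 to 74612378) has GGCGCC 1 time. That of SMAD6 (plus strand, chr15:66701986-66702285, at the start of a gene from 66702236 to 66782849) has GTCTAGAC 1 time. SMAD6 was not called at edgeR's adjusted threshold, while the called TGFB1, FST, TGIF1 and TGFBR1 are not shown. The windows of TGFB1 and FST have none of the 3 motifs. TGIF1 and TGFBR1 have CAGACA in some of their windows, and TGFBR1 has GGCGCC as well.
ID2: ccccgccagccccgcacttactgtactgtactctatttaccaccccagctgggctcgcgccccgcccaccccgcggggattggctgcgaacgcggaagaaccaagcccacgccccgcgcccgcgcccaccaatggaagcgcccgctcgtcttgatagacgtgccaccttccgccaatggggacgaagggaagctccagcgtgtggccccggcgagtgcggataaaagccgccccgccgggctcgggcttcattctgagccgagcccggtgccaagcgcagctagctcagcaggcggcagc
BAMBI: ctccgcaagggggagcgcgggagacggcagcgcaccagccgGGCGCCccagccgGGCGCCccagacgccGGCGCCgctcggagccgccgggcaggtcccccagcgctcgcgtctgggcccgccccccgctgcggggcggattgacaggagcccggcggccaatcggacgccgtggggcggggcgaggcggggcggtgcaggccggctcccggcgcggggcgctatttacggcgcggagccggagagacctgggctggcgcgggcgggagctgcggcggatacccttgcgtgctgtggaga
LTBP2: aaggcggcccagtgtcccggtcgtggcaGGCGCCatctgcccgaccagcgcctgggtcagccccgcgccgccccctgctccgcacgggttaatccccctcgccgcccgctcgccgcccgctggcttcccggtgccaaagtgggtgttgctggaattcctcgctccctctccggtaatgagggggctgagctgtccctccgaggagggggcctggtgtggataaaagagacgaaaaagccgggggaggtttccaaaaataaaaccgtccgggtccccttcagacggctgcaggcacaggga
SMAD6: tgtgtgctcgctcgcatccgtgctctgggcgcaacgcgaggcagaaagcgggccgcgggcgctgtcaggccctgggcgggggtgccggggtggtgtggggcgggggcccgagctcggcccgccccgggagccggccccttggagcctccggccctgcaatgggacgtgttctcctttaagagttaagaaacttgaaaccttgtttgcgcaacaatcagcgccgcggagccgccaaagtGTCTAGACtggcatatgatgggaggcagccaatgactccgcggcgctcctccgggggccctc
A match describes the letters of a window only, and no binding was measured.

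Other genes of the pathway were described from 7 lists of 120 genes, of which 85 were tested. Of these, 3 were higher and 0 lower at edgeR's adjusted threshold, with 12 and 12 at an unadjusted p at or below 0.05 and 6 and 3 by DESeq2. The 3 are 3.53% of the list genes tested, beside 3.35% of all genes, and an unadjusted p at or below 0.05 was found for 11.9% of all genes in the higher and 11.5% in the lower direction. Of the 25 tested TGF-beta target genes 13 lay above 0 and 12 below, around a median of 0.01, and 2 rose. At an unadjusted p at or below 0.05 these were 4 higher and 6 lower, with the fold threshold as well 3 and 2, and by DESeq2 4 and 1. ANGPTL4, a lipase inhibitor that fatty acids induce as well as TGF-beta, had 222, 352 and 196 CPM in ACM and 29.7, 26.0 and 27.3 CPM in UCM. Each ACM value was many times any UCM value (log2 FC = 3.21 ± 0.24 SE, edgeR adjusted p = 0.00294). WNT5A, a WNT ligand, had 49.2, 53.7 and 40.0 CPM in ACM and 34.8, 32.4 and 33.9 CPM in UCM. All ACM values were above UCM (log2 FC = 0.50 ± 0.11 SE, edgeR adjusted p = 0.0290).

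The 8 tested BMP target genes had a median of -0.27, with 6 below 0 and 2 above. Of them edgeR called 0, with 2 at an unadjusted p at or below 0.05 and 1 by DESeq2. ATOH8, a bHLH transcription factor gene, had 17.1, 16.5 and 21.8 CPM in ACM and 24.3, 40.9 and 39.9 CPM in UCM. As with the ID genes, UCM replicate 1 lay between ACM and the other UCM libraries (log2 FC = -0.92 ± 0.21 SE, edgeR adjusted p = 0.0513). GATA2, which encodes a zinc finger transcription factor, had 25.9, 24.5 and 25.5 CPM in ACM and 27.7, 33.9 and 31.5 CPM in UCM. Its groups were apart as well (log2 FC = -0.29 ± 0.10 SE, edgeR adjusted p = 0.107).

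The list of latency and activation genes had 10 tested members with a median of 0.24, of which 1 rose. At an unadjusted p at or below 0.05 there were 3 higher and 0 lower, and DESeq2 called 1. The groups were wholly apart for 1 gene in the higher and 1 in the lower direction. LTBP4, a carrier of latent TGF-beta, had 63.0, 64.7 and 49.8 CPM in ACM and 39.2, 43.7 and 40.7 CPM in UCM. No ACM value was within the UCM range (log2 FC = 0.52 ± 0.10 SE, edgeR adjusted p = 0.0204). All 6 tested genes of further receptors and coreceptors had a log2 FC above 0, with a median of 0.36. Of these edgeR called 0, with 2 at an unadjusted p at or below 0.05 and 1 by DESeq2. ENG, or endoglin, had 124, 141 and 138 CPM in ACM and 97.9, 111 and 114 CPM in UCM. Its groups did not overlap (log2 FC = 0.32 ± 0.08 SE, edgeR adjusted p = 0.0506). RGMB, a BMP coreceptor, had a log2 FC of 0.16 (edgeR adjusted p = 0.203).

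Further ligands were largely silent, since 7 of 24 were tested and 9 had no count in any library. Their median was -0.21, and edgeR and DESeq2 called 0, with 1 at an unadjusted p at or below 0.05. That gene was BMP7, with 4.42, 4.79 and 3.64 CPM in ACM and 5.31, 6.72 and 5.66 CPM in UCM. The ACM values lay below UCM (log2 FC = -0.46 ± 0.19 SE, edgeR adjusted p = 0.181). Its effective length was 1652 to 1715 bases in ACM and 2026 to 2649.6 in UCM, and in TPM the groups of BMP7 overlapped, with means of 3.58 and 3.70. GDF6, next by p, had a log2 FC of -1.02 with overlapping groups (edgeR adjusted p = 0.298). Further extracellular antagonists had 9 tested genes and a median of 0.10, with 0 called by edgeR or DESeq2 and 3 at an unadjusted p at or below 0.05. CHRDL2, a chordin-like BMP antagonist, had a log2 FC of 0.85 (edgeR adjusted p = 0.115) and NBL1, also called DAN, one of 0.20 (edgeR adjusted p = 0.165). The 20 further regulators inside the cell had a median of -0.00, with 0 called by edgeR, 1 by DESeq2 and 3 at an unadjusted p at or below 0.05. SMAD9, the remaining SMAD of the BMP arm, had 10.6, 9.69 and 11.7 CPM in ACM and 12.5, 20.3 and 15.6 CPM in UCM. Every ACM value was below every UCM value (log2 FC = -0.59 ± 0.18 SE, edgeR adjusted p = 0.0796). CREBBP, an acetyltransferase that SMADs recruit, had a log2 FC of -0.23 (edgeR adjusted p = 0.134).

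**Figure D4:**
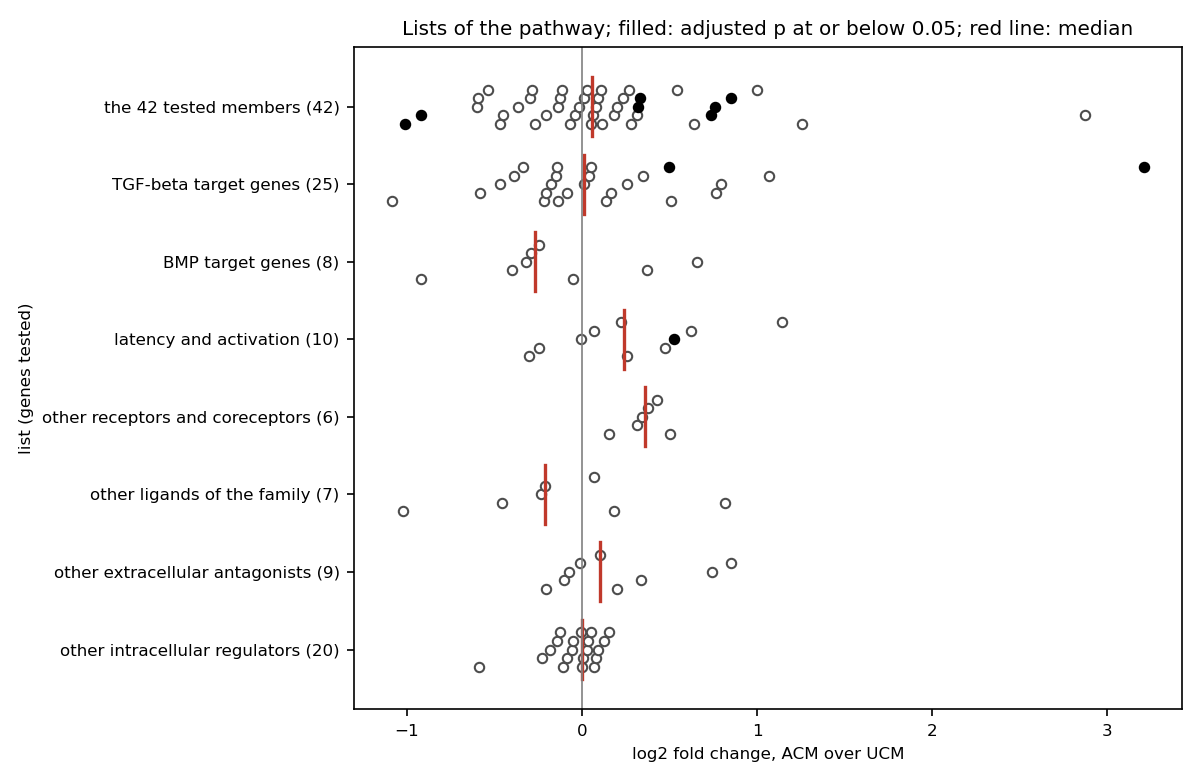
Log2 fold change of ACM over UCM for the 42 tested members and for the tested genes of 7 further pathway lists, a point for each gene, filled where the adjusted p is at or below 0.05, with a red line at each median. BMP target genes have a median of -0.27 and further receptors one of 0.36, while TGF-beta target genes lie around 0.01 with ANGPTL4 at 3.21.

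**Figure D5:**
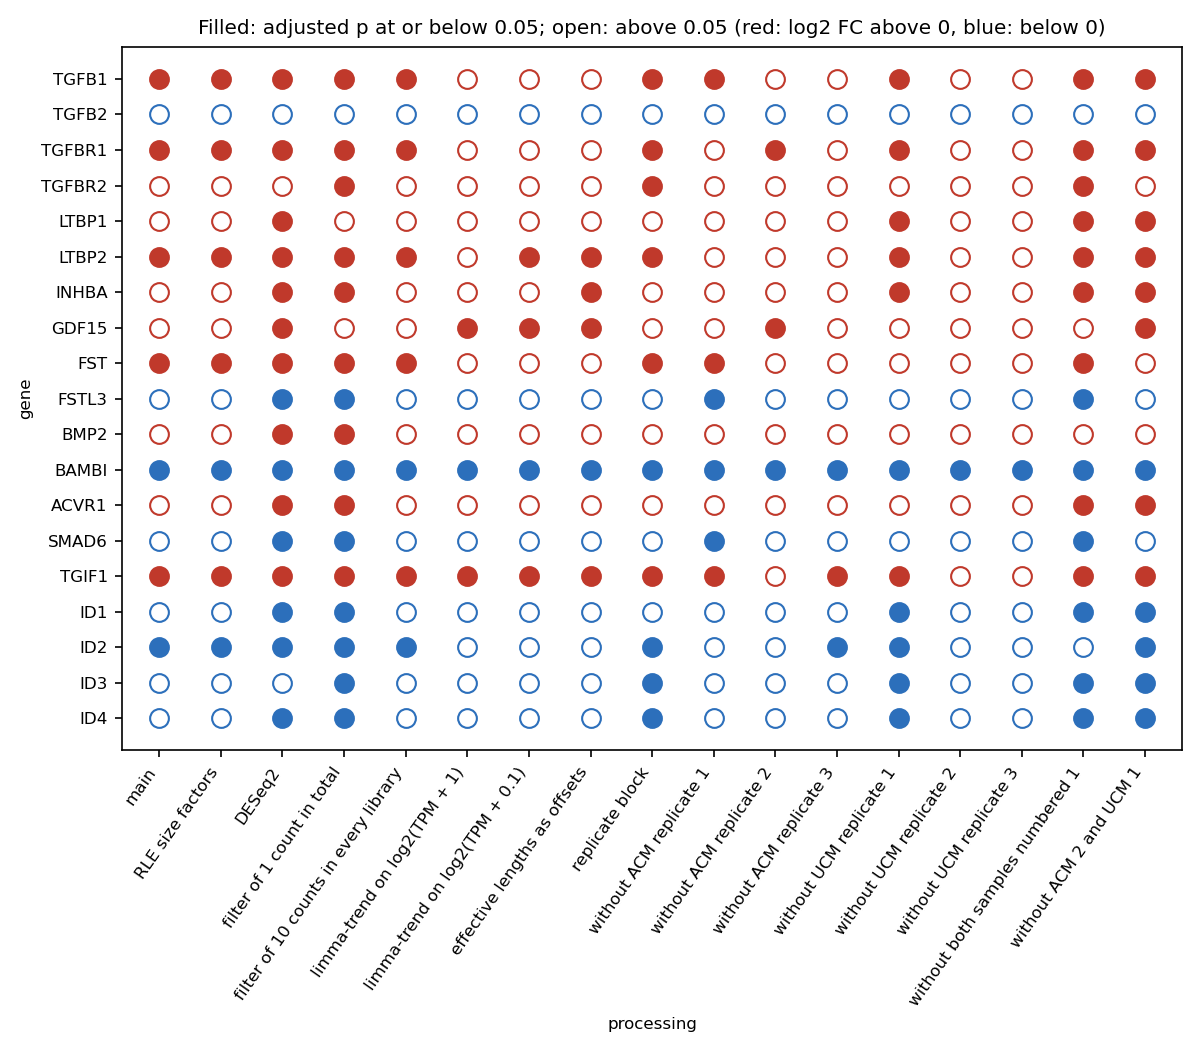
Calls of the 19 members with an unadjusted p at or below 0.05 and groups apart, a column for each processing, filled where the adjusted p is at or below 0.05, red for a log2 FC above 0 and blue below 0. The row of BAMBI is filled throughout, while that of TGFB2 is open throughout, and the columns without UCM replicate 2 or 3 are open but for BAMBI.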

How the data were processed

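RNA from 3 ACM and 3 UCM cultures was polyA-selected and read in pairs. According to the methods, the authors used Trim Galore on the reads, STAR for alignment to GRCh38 and RSEM for gene quantities. Tool versions and gene annotation are not given in the sources used here. The authors deposited for each gene an expected count (not scaled for depth), a TPM (scaled for effective length and to a fixed library sum) and other values, of which the effective length was used. The deposited fold change table holds the authors' own comparison and was not used. Identifiers with version matched GENCODE 44 for 61547 of 63140 genes.

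Expected counts were rounded and tested in R 4.3.3 with edgeR 4.0.16 (TMM, filterByExpr, robust quasi-likelihood fit, condition alone), with Benjamini-Hochberg adjustment over all 14451 genes tested. The fit was tested on simulated data. Each member is named. Values in every library were given for members at an adjusted p at or below 0.05, at an unadjusted p at or below 0.05 with groups apart, or of highest TPM in their role. Of each list, up to 5 genes called, or otherwise up to 2 of smallest p, were named. Members and lists were chosen with earlier results of these data known. Alternatives were RLE size factors, DESeq2 1.42.0, filters of 1 count in total and of 10 in every library, limma 3.58.1 on log2 TPM with 1 or 0.1 added, effective lengths as offsets, a replicate block and each library left out.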

Additional observations from a re-analysis of the deposited data

How the results depend on the processing

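Counts of genes and members called, the median of members and the log2 FC of each member were recomputed under 14 alternatives (genes of the other lists, groups apart and library positions were not), and under 2 more that were chosen after seeing the data, without both replicates 1 and without ACM replicate 2 and UCM replicate 1 together. Of 671 log2 FC values of members, 553 kept direction and side of the threshold, 40 lost the call, 61 gained it and 17 changed sign, and 35 members did not change sign under any of the 14. Where a count or value moved, the cause was not tested. The main counts were 484 genes higher and 320 lower, and 5 and 2 members. DESeq2 gave 764 genes higher and 447 lower, and 10 and 6 members. A filter of 1 count in total gave 1045 and 679 genes, 430 lower at the fold rule, and 12 and 8 members. Under this filter the log2 FC of LTBP2 stayed at 0.76, while its edgeR adjusted p went from 0.0450 to 8.05e-12. LTBP1 stayed at a log2 FC of 1.00, while its edgeR adjusted p went from 0.0783 to 0.2325. With limma on log2 TPM plus 1 the counts were 210 and 121 genes and 2 and 1 members, and with 0.1 added 221 and 128 genes and 3 and 1 members. Effective lengths as offsets gave 272 and 134 genes, 4 members higher and 1 lower, and a median log2 FC of members of 0.082. INHBA and GDF15 gained the call under these offsets (edgeR adjusted p = 0.0454 and 0.0292). A filter of 10 counts in every library gave a median of 0.077. With each library left out in turn, 125 to 738 genes were higher and 62 to 572 lower. At the fold rule 391 to 765 genes were higher and 189 to 354 lower. In these fits 0 to 8 members were higher and 1 to 5 lower, with 2 to 5 members lower at the fold rule. The median of members lay between 0.021 and 0.10. Without both replicates 1, 1017 and 726 genes, 11 and 6 members and a median of 0.11 were found. At the fold rule 5 members were then lower, beside 345 of all genes. Without ACM replicate 2 and UCM replicate 1 together, 611 genes were higher and 495 lower, and 9 members were higher and 5 lower. With single libraries left out, FSTL1 ranged from -0.18 to 0.063, TGFB3 from -0.094 to 0.12, INHBB from -0.10 to 0.13, SMAD4 from -0.023 to 0.065, SMAD5 from -0.12 to 0.034, BMPR2 from -0.0088 to 0.19 and SKIL from -0.059 to 0.28. SMAD5 was 0.0055 without both replicates 1, and without ACM replicate 2 and UCM replicate 1 together TGFB3 was -0.040, INHBB 0.11 and SMAD5 0.012. Same-numbered cultures deviated together with a correlation of 0.318, 0.0347 and 0.177 for numbers 1, 2 and 3, and ACM replicate 3 correlated best with UCM replicate 2 (0.196). The 2 libraries numbered 1 also lay at 22.3 and 29.8 on the second principal component, and the others between -21.5 and -7.84, and whether equal numbers mark a shared batch cannot be told from the labels. With a replicate block, 909 genes were higher and 703 lower, with 8 and 5 members. Calls were gained under the block for TGFBR2 (edgeR adjusted p = 0.0358, alternatives 0.00670 to 0.284), LTBP3 (0.0230), SMAD3 (0.0355), SMURF1 (0.0358), ID3 (0.0225) and ID4 (0.0263). BMP6, GREM1, ACVR2A, FST and BMP2 are the members of fewest counts.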
